A study of Mus musculus with 4 samples.

Results

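The transcripts described here belong to 41 named genes of glucose breakdown and of the response to low oxygen. They cover transport of glucose and lactate, the enzymes from glucose phosphorylation to lactate, the regulators of phosphofructokinase and of pyruvate dehydrogenase, the subunits of hypoxia-inducible factor (HIF), the enzymes that control HIF, and genes that HIF is known to activate. The genes were taken by symbol from the list of the pathway, and all 41 were found among the 35869 genes measured. All 41 were also among the 16849 genes with enough signal to be tested.

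CD45+ cells are the immune cells of a tissue. They were enriched with CD45 microbeads from the stromal vascular fraction of epididymal white adipose tissue (eWAT) of male wild-type C57BL/6 mice. From 8 weeks of age the mice received either a normal diet (ND, 10% of calories from fat) or a high-fat diet (HFD, 60% of calories from fat), for 12 weeks. RNA-seq was available for 2 samples of each diet, and the number of mice in a sample was not given in the sources used here. With so few samples and no statement that they came from separate animals, the p-values measure the spread between these samples, which may be technical. The comparison asks which of these genes differ between CD45+ cells of lean and of obese fat.

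Values are TPM, the abundance of a gene's transcripts corrected for gene length and scaled to the same total in every sample. A level in TPM is therefore relative, and in cells sequenced in bulk a difference in the kinds of cells and a difference in RNA per cell cannot be told apart. Ptprc, which encodes CD45, stood at 54.5 and 59.4 TPM in the ND samples and at 55.3 and 53.7 TPM in the HFD samples. Libraries held an estimated 3.76e+07 to 4.69e+07 counted reads. Fold changes are given as HFD minus ND on the log2(TPM + 1) scale with the standard error (SE) from limma, which understates the change of genes at low levels. A gene was called when its p from limma, adjusted by Benjamini-Hochberg over all genes tested, was under 0.05 and its change was at least 1.5-fold.

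Glycolysis splits glucose into pyruvate in the cytosol and yields ATP without oxygen. Lactate dehydrogenase turns pyruvate into lactate, and pyruvate dehydrogenase passes it to the mitochondria. HIF is a pair of an oxygen-sensitive alpha subunit and a stable beta subunit. When oxygen is present, prolyl hydroxylases mark the alpha subunit and the VHL protein leads it to degradation. When oxygen is short, the alpha subunit persists and many genes of glycolysis and vessel growth are transcribed. In macrophages of fat, HIF and glycolysis are known for their links to inflammatory activation.

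Of the 41 genes, 11 were called higher in HFD and 1 was called lower, while 29 were not called. Called higher were the glucose transporter gene Slc2a1, 8 of the 18 genes of glycolytic enzymes with lactate dehydrogenase (Hk3, Aldoa, Tpi1, Pgk1, Pgam1, Eno2, Pkm and Ldha), the kinase gene Pdk1 and the growth factor gene Vegfa. Egln3, which encodes a HIF prolyl hydroxylase, was the gene called lower. The share called higher was 26.8% of the 41 genes, beside 8.08% of all genes tested. The share called lower was 2.44%, beside 10.3% of all genes tested. In either direction 18.4% of all genes tested were called. Leaving out ND replicate 1 or ND replicate 2 left 0 of the 41 genes called by limma, with 17 and 18 of them at an unadjusted p under 0.05, and 0 of the 16849 genes tested called, with 3862 and 4024 at that p, since the spread then came from the HFD pair alone. Leaving out HFD replicate 1 or HFD replicate 2 left 15 and 12 called, beside 18.1% and 25.1% of all genes tested, but the spread then came from the close ND pair alone and the lone HFD sample was assumed to vary like it.

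The median log2 fold change of the 41 genes was 0.20, against 0.056 over all genes tested, with a range from -1.06 to 2.14. In 21 of the 41 genes both HFD samples were above both ND samples, which is 51.2%, beside 34.1% of all genes tested. In 11 genes, or 26.8%, both HFD samples were below both ND samples, beside 32.8%, and in 9 genes the samples of the diets overlapped. The diets were apart in one direction or the other in 66.9% of all genes tested. Of the 29 genes not called, 6 had an adjusted p under 0.05 in limma and missed the limit of 1.5-fold. These were Gpi1, Gapdh, Eno1 and Bnip3l, which were higher in HFD, and Pfkl and Egln1, which were lower. An adjusted p under 0.05, whatever the fold, was reached by 15 of the 41 genes on the higher side, beside 13.2% of all genes tested, and by 3 on the lower side, beside 14.1%. With median-ratio scaling, Slc2a1, Gpi1, Gapdh, Eno1, Pfkl and Egln1 no longer reached it (adjusted p from limma between 0.0526 and 0.267), and with quantile normalization Slc2a1 (0.0552), Gpi1 (0.070) and Eno1 (0.156) did not. For a single gene, an exact permutation test of 2 against 2 samples cannot give a p below 0.33.

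**Figure D1:**
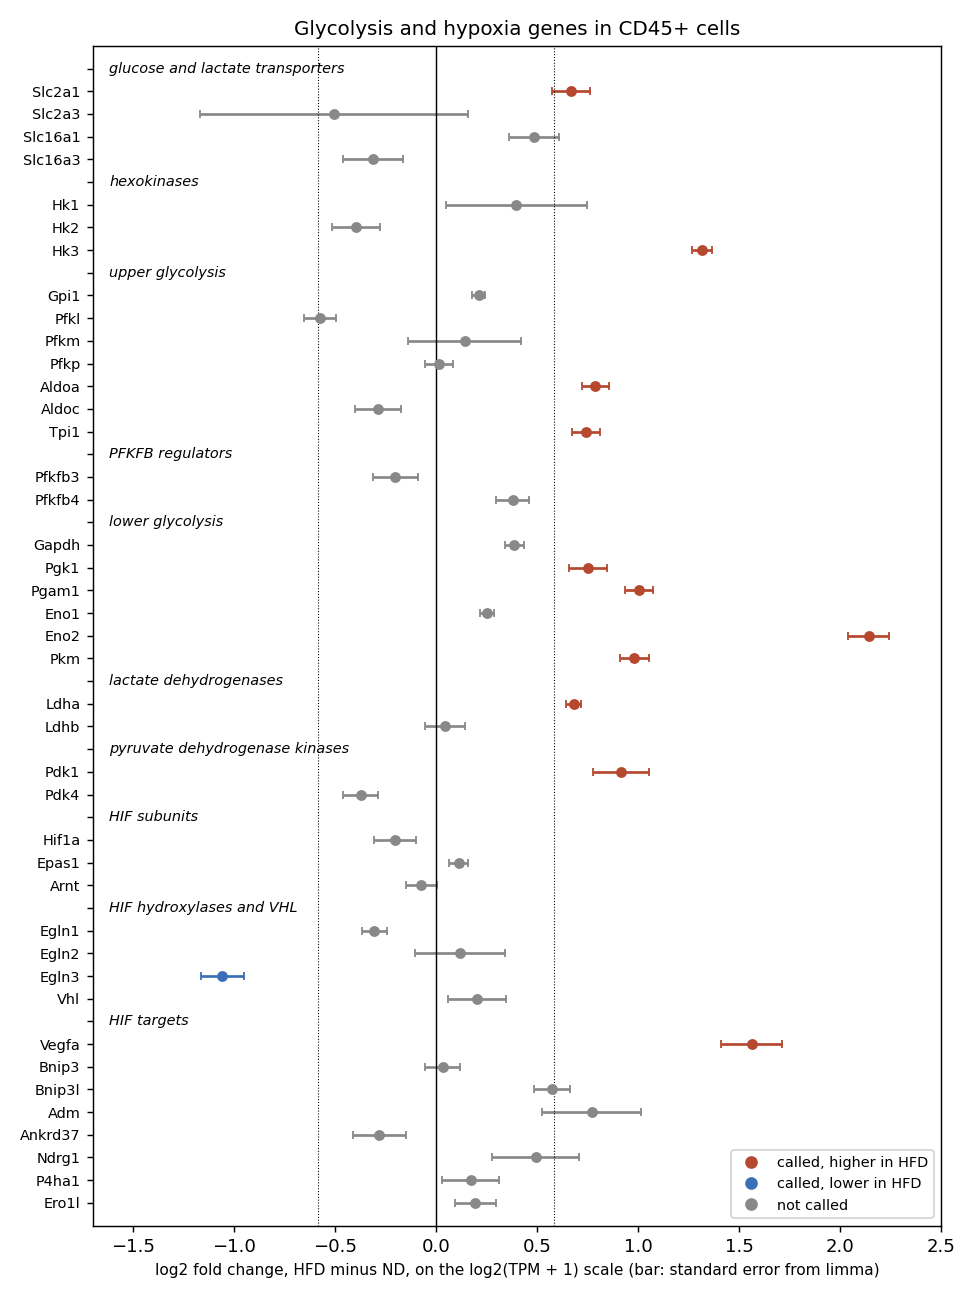
Log2 fold change (HFD minus ND on the log2(TPM + 1) scale, bars are the SE from limma) of the 41 genes, ordered by role, with dotted lines at 1.5-fold. The 11 genes called higher lie to the right of the upper line, and Egln3, at -1.06, is the gene called lower.

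HIF binds DNA at short motifs, and promoters of glycolytic genes are known to hold them. The promoters of 4 called genes are shown, 2 of classical HIF targets (Ldha and Pgk1), that of the hexokinase gene with the largest rise among the hexokinases (Hk3) and that of the gene called lower (Egln3). Each runs 5′ to 3′ from 250 bases before to 50 bases after a transcript start in the RefSeq promoter table (GRCm38.p6), which need not be the outermost end of the gene. Capitals mark ACGTG or GCGTG on either strand.
Ldha: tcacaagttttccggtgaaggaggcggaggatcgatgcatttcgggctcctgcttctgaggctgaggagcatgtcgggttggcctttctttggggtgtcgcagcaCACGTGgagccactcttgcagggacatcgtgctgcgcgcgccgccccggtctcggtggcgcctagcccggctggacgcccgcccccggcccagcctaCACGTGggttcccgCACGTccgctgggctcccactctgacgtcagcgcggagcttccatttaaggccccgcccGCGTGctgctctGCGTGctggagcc
Pgk1: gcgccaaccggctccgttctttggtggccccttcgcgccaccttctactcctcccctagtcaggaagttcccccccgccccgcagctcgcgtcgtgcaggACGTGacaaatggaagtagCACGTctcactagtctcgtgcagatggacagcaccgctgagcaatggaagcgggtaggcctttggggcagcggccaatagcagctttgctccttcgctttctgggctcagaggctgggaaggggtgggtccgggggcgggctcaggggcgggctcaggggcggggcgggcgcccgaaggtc
Hk3: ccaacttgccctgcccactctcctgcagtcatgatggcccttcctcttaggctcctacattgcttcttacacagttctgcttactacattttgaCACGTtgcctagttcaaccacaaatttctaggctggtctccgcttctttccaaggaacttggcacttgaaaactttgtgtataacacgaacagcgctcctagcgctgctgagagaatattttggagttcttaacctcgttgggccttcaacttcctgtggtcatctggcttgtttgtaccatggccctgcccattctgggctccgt
Egln3: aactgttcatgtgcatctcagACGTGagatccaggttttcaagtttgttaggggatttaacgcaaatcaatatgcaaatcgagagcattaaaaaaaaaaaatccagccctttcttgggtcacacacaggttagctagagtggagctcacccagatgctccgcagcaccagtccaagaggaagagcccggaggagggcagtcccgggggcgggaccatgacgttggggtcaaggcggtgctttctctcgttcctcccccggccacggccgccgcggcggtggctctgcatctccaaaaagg

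The Ldha window (chr7:46845554-46845853, plus strand) held 7 matches, counting the palindrome CACGTG once on each strand, and held that palindrome 2 times. Ldha has another window in the table (chr7:46846832-46847131), with 2 matches, and both windows lie inside the outer limits of the gene model. The Pgk1 window (chrX:106186850-106187149, plus strand) held 2 matches. The Hk3 window (chr13:55021336-55021635, minus strand) and the Egln3 window (chr12:54203825-54204124, minus strand) held 1 each. The motif was therefore present in the window of the gene called lower as in those of genes called higher.

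Promoter windows were matched for 37 of the 41 genes, as 52 windows, since some genes have several starts. At least 1 match was found for 33 of the 37 genes (89.2%), beside 62.1% of the 11783 tested genes with a window. Among the 12 called genes 10 had a match (83.3%), and among the 25 uncalled genes with a window 23 had one (92.0%), so the called genes did not hold the motif more often than the others. Eno2 and Tpi1 were the called genes without a match in their windows. Windows of the 41 genes held a median of 20 CG dinucleotides, against 18 in windows of tested genes and 7 in all windows of the table, and the motif itself contains CG. A match says only that these letters are present in the window.

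Glucose enters cells through the transporters Slc2a1 (GLUT1) and Slc2a3 (GLUT3), and monocarboxylates such as lactate cross the membrane through Slc16a1 (MCT1) and Slc16a3 (MCT4). Slc2a1 (chr4:119108745-119137330) was measured at 27.6 and 27.2 TPM in the ND samples and at 41 and 47.5 TPM in the HFD samples. Both HFD samples were above both ND samples, and the log2 fold change was 0.67 (SE 0.093, n = 2 per diet, adjusted p from limma = 0.0236). This call was lost under median-ratio scaling, under quantile normalization and without the filter on low values (adjusted p from limma = 0.0515), and the smallest log2 fold change among the scalings was 0.55.

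Slc2a3 was measured at 14.6 and 14.9 TPM in ND, at 19.1 TPM in HFD replicate 1 and at 5.1 TPM in HFD replicate 2. The 2 HFD samples lay on opposite sides of the ND samples, and the log2 fold change of -0.51 (adjusted p from limma = 0.618) was not called. Leaving out HFD replicate 1 gave Slc2a3 a log2 fold change of -1.37, and leaving out HFD replicate 2 gave 0.35. The direction of this transporter thus rested on which HFD sample was read.

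Slc16a1 was measured at 17.9 and 19.8 TPM in ND and at 24.4 and 29.3 TPM in HFD, a log2 fold change of 0.48 that was not called. Slc16a3, the transporter known for lactate export from glycolytic cells, was measured at 15.2 and 15.6 TPM in ND and at 10.7 and 13.9 TPM in HFD, a log2 fold change of -0.31 that was not called either and ranged from -0.49 to -0.14 when one or the other HFD sample was left out. The samples of the diets did not overlap for either lactate transporter.

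Hexokinases phosphorylate glucose and so trap it in the cell. Hk3 (chr13:55005985-55021475), the form typical of myeloid cells, was measured at 24.9 and 24.2 TPM in ND and at 62.0 and 63.1 TPM in HFD. The replicates of each diet were close together and the diets were far apart. The log2 fold change was 1.31 (SE 0.050, n = 2 per diet, adjusted p from limma = 0.00468). Hk2, the form induced by insulin and by HIF, was measured at 24.1 and 26.4 TPM in ND and at 17.3 and 20.7 TPM in HFD, a log2 fold change of -0.40 that was not called although the diets did not overlap.

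Hk1, the form found in most tissues, was measured at 18.9 TPM in both ND samples, at 34.7 TPM in HFD replicate 1 and at 18.2 TPM in HFD replicate 2. One HFD sample was above ND and the other was next to it. Its log2 fold change was 0.40 (adjusted p from limma = 0.468) over both HFD samples, -0.052 without HFD replicate 1, and 0.84 without HFD replicate 2.

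In ND the 3 hexokinases were present at similar levels per length, with Hk3 giving 36.7% and 34.8% of their summed TPM, Hk2 35.5% and 38.0%, and Hk1 27.8% and 27.2%. In HFD Hk3 gave 54.4% and 61.9%, Hk2 15.2% and 20.3%, and Hk1 30.4% and 17.8%. The share of Hk3 was higher and that of Hk2 lower in both HFD samples than in both ND samples, while the share of Hk1 overlapped between the diets. The summed hexokinase TPM was 67.9 and 69.5 in ND and 114 and 102 in HFD, a ratio of the means of 1.57.

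Gpi1, the isomerase of the step after hexokinase, was the gene with the highest TPM of the 41 in both diets. It was measured at 417.2 and 411.2 TPM in ND and at 478.5 and 479.7 TPM in HFD. HFD replicates were both higher, and the log2 fold change of 0.21 (SE 0.032, n = 2 per diet, adjusted p from limma = 0.0281) did not reach 1.5-fold.

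Phosphofructokinase commits sugar phosphate to glycolysis and was the step whose summed TPM was lower in HFD. Pfkl, the liver form, was measured at 27.3 and 25.8 TPM in ND and at 16.7 and 18.3 TPM in HFD. Both HFD samples were lower, and the log2 fold change was -0.58 (adjusted p from limma = 0.0226), a change of 1.49-fold that lies just under the limit. It was called lower with quantile normalization, with a pseudocount of 0.1 and after rescaling without the 50 most abundant genes.

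Pfkp, the platelet form, was measured at 22.8 and 24.6 TPM in ND and at 24.4 and 23.5 TPM in HFD, and the diets overlapped. Pfkm, the muscle form, was measured at 5.6 and 5.8 TPM in ND, at 8.4 TPM in HFD replicate 1 and at 4.8 TPM in HFD replicate 2, so that the HFD samples lay on both sides of ND. Pfkl gave 49.0% and 45.9% of the summed phosphofructokinase TPM in ND and 33.7% and 39.3% in HFD. Pfkp gave 40.9% and 43.8% in ND and 49.3% and 50.4% in HFD, and so became the most abundant of the 3 forms in both HFD samples. The sum was 55.7 and 56.2 TPM in ND, against 49.5 and 46.6 TPM for HFD, a ratio of the means of 0.859.

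The bifunctional enzymes of the Pfkfb family set the level of fructose 2,6-bisphosphate, an activator of phosphofructokinase. Neither of the 2 genes was called. Pfkfb3, the form with the strongest kinase activity, was measured at 7.0 and 7.3 TPM in ND and at 5.6 and 6.6 TPM in HFD (log2 fold change -0.20). Pfkfb4 was measured at 6.0 and 6.4 TPM in ND and at 8.5 and 8.2 TPM in HFD (log2 fold change 0.38, adjusted p from limma = 0.0527). The diets did not overlap for either gene, with HFD below ND for Pfkfb3 and above it for Pfkfb4.

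Aldolase splits the sugar into 2 triose phosphates, and triosephosphate isomerase interconverts them. Aldoa, the main aldolase of most tissues, was measured at 114.4 and 111.4 TPM in ND and at 186.4 and 205.2 TPM in HFD. HFD was above ND in each replicate, with a log2 fold change of 0.79 (SE 0.066, n = 2 per diet, adjusted p from limma = 0.0104). Aldoc, the brain form, was measured at 4.2 and 3.6 TPM in ND and at 3.1 and 2.9 TPM in HFD (log2 fold change -0.29) and was not called. Its share of the summed TPM of Aldoa and Aldoc was 3.54% and 3.13% in ND and 1.64% and 1.39% in HFD.

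Tpi1 (chr6:124810586-124814158) was measured at 262.1 and 269.8 TPM in ND and at 470.2 and 422.2 TPM in HFD. Each HFD sample exceeded each ND sample, with a log2 fold change of 0.74 (SE 0.070, n = 2 per diet, adjusted p from limma = 0.0122). Of the 7 genes of the upper steps between hexokinase and the triose phosphates, Aldoa and Tpi1 were the 2 called, which is 28.6% of them beside 8.08% of all genes tested.

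The lower steps, from glyceraldehyde phosphate to pyruvate, yield the ATP of glycolysis. All 6 genes of these steps had both HFD samples above both ND samples, and 4 of them were called, beside 34.1% and 8.08% of all genes tested. Gapdh, which oxidizes glyceraldehyde phosphate, was measured at 322.8 and 321.9 TPM in ND and at 408.8 and 435.0 TPM in HFD. Replicates of HFD were both higher, with a log2 fold change of 0.39 (SE 0.047, n = 2 per diet, adjusted p from limma = 0.0185), a change of 1.31-fold that was below the limit.

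Pgk1 (chrX:106187100-106203699), whose promoter is printed above, makes the first ATP of the pathway. It was measured at 212.2 and 231.1 TPM in ND and at 349.7 and 399.4 TPM in HFD. The diets were well apart, with a log2 fold change of 0.75 (SE 0.093, n = 2 per diet, adjusted p from limma = 0.0192). Without HFD replicate 2 the call of Pgk1 was lost.

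Pgam1 (chr19:41911871-41918665), a phosphoglycerate mutase, was measured at 154.7 and 161.8 TPM in ND and at 302.4 and 334.0 TPM in HFD. Both HFD samples were above both ND samples. The log2 fold change was 1.0 (SE 0.069, n = 2 per diet, adjusted p from limma = 0.00815).

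The enolases Eno1 and Eno2 catalyse the same step. Eno1, the form of most tissues, was measured at 254.7 and 251.2 TPM in ND and at 299.0 and 303.6 TPM in HFD, a log2 fold change of 0.25 (adjusted p from limma = 0.0233) that was below the limit of 1.5-fold and was 0.10 with quantile normalization. Eno1 has a near-identical copy, Eno1b, and reads may have been split between them. Eno1b was measured at 49.0 TPM in both ND samples and at 52.4 and 49.9 TPM in HFD (log2 fold change 0.060, adjusted p from limma = 0.453).

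Eno2 (chr6:124760053-124769673), the form named for neurons, was measured at 1.1 and 1.0 TPM in ND and at 7.7 and 8.4 TPM in HFD. The HFD pair was far above ND, and the log2 fold change of 2.14 (SE 0.10, n = 2 per diet, adjusted p from limma = 0.00536) was the largest of the 41 genes on this scale. It was 2.83 with a pseudocount of 0.1 and 1.11 with a pseudocount of 5, where Vegfa (1.22) and Hk3 (1.19) were larger. These levels correspond to about 73.7 and 77.6 reads in the ND samples and about 586 and 556 in the HFD samples. Eno2 still gave a small part of the summed TPM of Eno1 and Eno2, with 0.430% and 0.397% in ND and 2.51% and 2.69% in HFD. Eno1b and a further enolase gene, Eno3, were not in this sum.

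Pkm (chr9:59656576-59679372), the pyruvate kinase of immune cells and muscle, was measured at 121.6 and 121.9 TPM in ND and at 228.0 and 255.2 TPM in HFD. The HFD samples both lay above ND, with a log2 fold change of 0.98 (SE 0.071, n = 2 per diet, adjusted p from limma = 0.00873). Its splice forms M1 and M2 are not separated in values per gene. Another gene model on the same strand, Gm49759, covers 15.3% of the exon bases of Pkm.

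**Figure D2:**
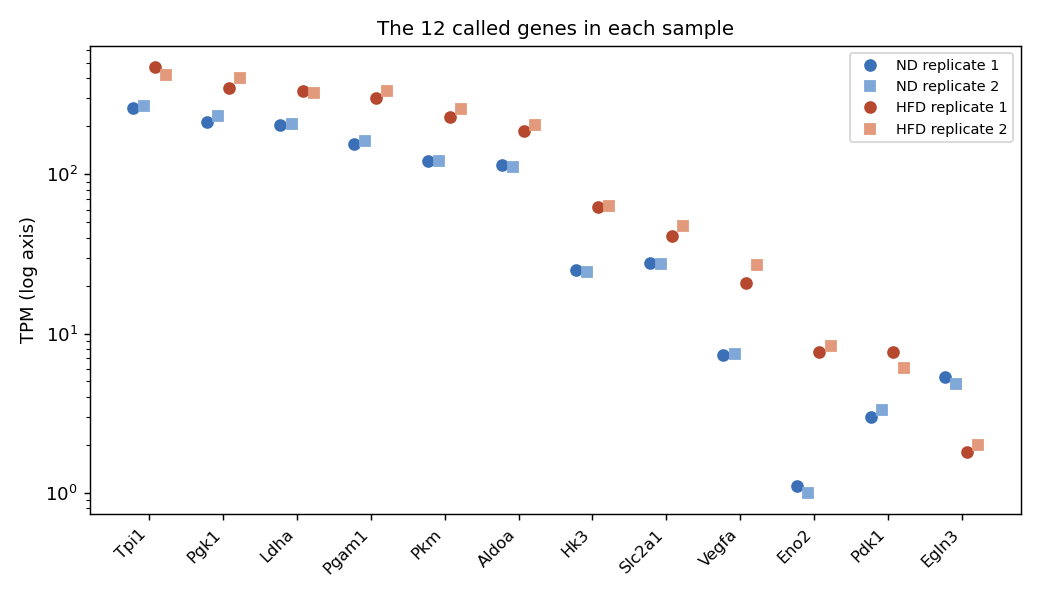
TPM (log axis) of the 12 called genes in each of the 4 samples, ND in blue and HFD in red, circles for replicate 1 and squares for replicate 2. In 11 genes both HFD samples lie above both ND samples, and in Egln3 both lie below.

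Ldha (chr7:46842274-46855627), whose promoter held the most motif matches of those printed, encodes the lactate dehydrogenase subunit that favours lactate formation. It was measured at 204.6 and 206.7 TPM in ND and at 335.0 and 325.2 TPM in HFD. HFD was above ND in each replicate, with a log2 fold change of 0.68 (SE 0.037, n = 2 per diet, adjusted p from limma = 0.00618). The call of Ldha was lost with quantile normalization, where its log2 fold change was 0.52. Ldhb, the subunit typical of heart, was measured at 5.5 and 6.1 TPM in ND and at 6.2 and 5.8 TPM in HFD, and the diets overlapped. The ratio of Ldha to Ldhb TPM was 37.2 and 33.9 in ND and 54.0 and 56.1 in HFD.

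Pyruvate dehydrogenase kinases switch off the enzyme that carries pyruvate into the mitochondria. Pdk1, the kinase known as a HIF target, was measured at 3.0 and 3.3 TPM in ND and at 7.6 and 6.1 TPM in HFD. Both HFD samples were higher, with a log2 fold change of 0.91 (SE 0.14, n = 2 per diet, adjusted p from limma = 0.0277). Pdk1 was not called with a pseudocount of 5 or without the filter on low values. Pdk4, the kinase induced by fasting and fatty acids, was measured at 20.9 and 22.9 TPM in ND and at 17.3 and 16.0 TPM in HFD (log2 fold change -0.38, adjusted p from limma = 0.0564). Both HFD samples of Pdk4 were below both ND samples, and the gene was not called.

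When the forms of each enzyme were summed, 10 of the 11 steps from hexokinase to lactate dehydrogenase were higher in both HFD samples than in both ND samples, beside 34.1% of single genes tested. Phosphofructokinase was lower. The ratio of the HFD mean to the ND mean was 2.01 for phosphoglycerate mutase, which is Pgam1 alone here, and 1.98 for pyruvate kinase. It was 1.70 for aldolase, 1.69 for phosphoglycerate kinase, 1.68 for triosephosphate isomerase and 1.59 for lactate dehydrogenase. The increases were smaller for GAPDH (1.31), enolase (1.22) and glucose-6-phosphate isomerase (1.16). The most abundant steps of the ND samples thus had the smallest ratios among those that were higher, apart from triosephosphate isomerase. The 18 genes together made up 0.220% and 0.222% of the total TPM in ND and 0.324% and 0.33% in HFD.

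**Figure D3:**
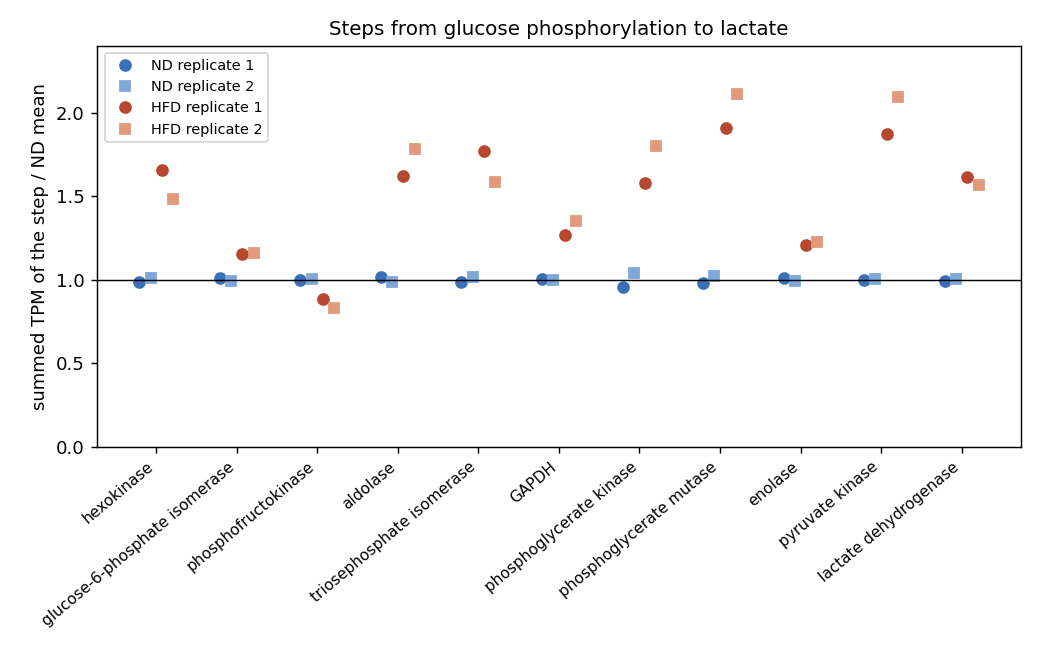
Summed TPM of the genes of each step divided by the mean of the ND samples, for the 11 steps in the order of the pathway; each point is 1 sample. Phosphofructokinase (ratio of means 0.859) is the step with both HFD samples below 1, and phosphoglycerate mutase and pyruvate kinase are nearest to 2.

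Transcripts of the HIF subunits were not called between the diets. Hif1a, the alpha subunit linked to glycolytic genes, was measured at 23.8 and 27.7 TPM in ND and at 21.4 and 23.0 TPM in HFD (log2 fold change -0.20). Epas1, which encodes HIF-2 alpha, was measured at 131.3 and 135.2 TPM in ND and at 140.8 and 147.0 TPM in HFD, a log2 fold change of 0.11 (SE 0.046, n = 2 per diet, adjusted p from limma = 0.177). Arnt, the beta subunit, was measured at 10.5 and 11.2 TPM in ND and at 10.1 and 10.4 TPM in HFD (log2 fold change -0.074). In all 4 samples Epas1 stood several-fold above Hif1a per length, and Arnt was the lowest of the 3. HIF alpha is mainly controlled as a protein, which was not measured here.

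The prolyl hydroxylases carry the oxygen signal to HIF. Egln1 (PHD2), the main hydroxylase of HIF-1 alpha, was measured at 31.7 and 34.1 TPM in ND and at 26.6 and 26.2 TPM in HFD. The HFD samples were both lower, and the log2 fold change of -0.31 (adjusted p from limma = 0.0489) did not reach 1.5-fold. Egln2 (PHD1) was measured at 92.6 and 90.5 TPM in ND, at 121.3 TPM in HFD replicate 1 and at 81.4 TPM in HFD replicate 2, on both sides of ND. Vhl was measured at 22.4 and 23.5 TPM in ND and at 30 and 23.5 TPM in HFD, touched ND in 1 sample and was not called.

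Egln3 (PHD3, chr12:54178981-54203874) is itself known as a gene induced by HIF. It was measured at 5.3 and 4.8 TPM in ND and at 1.8 and 2.0 TPM in HFD, which is about 201 and 211 reads for ND against 77.5 and 74.9 for HFD. Both HFD samples were below both ND samples, with a log2 fold change of -1.06 (SE 0.11, n = 2 per diet, adjusted p from limma = 0.0136). The call of Egln3 was lost with a pseudocount of 5.

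Of the 8 genes listed as HIF targets outside glycolysis, Vegfa was called, a share of 12.5% that lies near the 8.08% called higher among all genes tested. Vegfa (chr17:46016993-46032377), the main growth factor of blood vessels, was measured at 7.3 and 7.4 TPM in ND and at 20.8 and 26.9 TPM in HFD. Neither ND sample reached either HFD sample, with a log2 fold change of 1.56 (SE 0.15, n = 2 per diet, adjusted p from limma = 0.0127). Adm, which encodes the vessel-dilating peptide adrenomedullin, was measured at 13.7 and 12.2 TPM in ND and at 18.3 and 28.2 TPM in HFD (log2 fold change 0.77, adjusted p from limma = 0.107). Ndrg1, a gene of the stress response, was measured at 79.9 and 82.5 TPM in ND and at 94.4 and 138.9 TPM in HFD (log2 fold change 0.49). For Adm and Ndrg1 both HFD samples were above ND but far from each other, and neither gene was called.

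Bnip3 and Bnip3l encode receptors for the removal of mitochondria. Bnip3l was measured at 33.7 and 37.8 TPM in ND and at 55.9 and 51.5 TPM in HFD, a log2 fold change of 0.57 (adjusted p from limma = 0.0281) and a change of 1.49-fold, just under the limit. It was called higher with a pseudocount of 0.1 and after rescaling without genes unequal between the HFD replicates, an alternative chosen after seeing the data. Its reads may be shared with the copy Bnip3l-ps, which was measured at 13.3 and 13.5 TPM in ND and at 15.9 and 17.2 TPM in HFD. Bnip3 was measured at 34.0 and 33.0 TPM in ND and at 36.6 and 32.1 TPM in HFD, and the diets overlapped. The pair was therefore at like levels in ND and apart in HFD.

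The other 3 targets were not called. P4ha1, a collagen prolyl hydroxylase, was measured at 8.6 and 10 TPM in ND and at 9.6 and 11.6 TPM in HFD. Ero1l, an oxidase of the endoplasmic reticulum that RefSeq names Ero1a, was measured at 31.6 and 37.3 TPM in ND and at 39.8 and 39 TPM in HFD. Ankrd37 was measured at 2.9 and 2.3 TPM in ND and at 1.9 and 2.0 TPM in HFD. Their log2 fold changes were 0.17, 0.19 and -0.28.

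A wider list of 32 tested HIF targets, none of them among the 41 genes, had 7 genes called higher and 4 called lower, with a median log2 fold change of 0.20. These are 21.9% and 12.5% of the list, beside 8.08% and 10.3% of all genes tested. Plin2, a coat protein of lipid droplets, had the largest increase among those called on the log2(TPM + 1) scale, just above Hilpda, with 189.9 and 186.6 TPM for ND against 562.4 and 615.7 TPM for HFD (log2 fold change 1.64, adjusted p from limma = 0.00449). Selenbp1, a selenium-binding protein, had the largest decrease among those called on the log2(TPM + 1) scale, from 266.1 and 274.7 TPM to 87.5 and 75.4 TPM (log2 fold change -1.72, adjusted p from limma = 0.00597). The other genes called higher were Hilpda, Car9, Anxa2, Mxi1, Angptl4 and Plod1, and the others called lower were Tfrc, Stc2 and Bhlhe40, all named here after their values were seen.

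Of the genes named with it, Hilpda, an inhibitor of lipid breakdown, was measured at 121.8 and 123.4 TPM in ND and at 350.3 and 419.0 TPM in HFD. Angptl4, an inhibitor of lipoprotein lipase, was measured at 108.0 and 119.5 TPM in ND and at 167.2 and 211.9 TPM in HFD. Car9, a carbonic anhydrase widely used as a marker of hypoxia, was low throughout, with TPM values of 2.1 and 2.2 for ND and 6.3 and 6.6 for HFD (log2 fold change 1.24). Tfrc, the transferrin receptor, was measured at 80.0 and 88.9 TPM in ND and at 30 and 21.0 TPM in HFD.

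**Figure D4:**
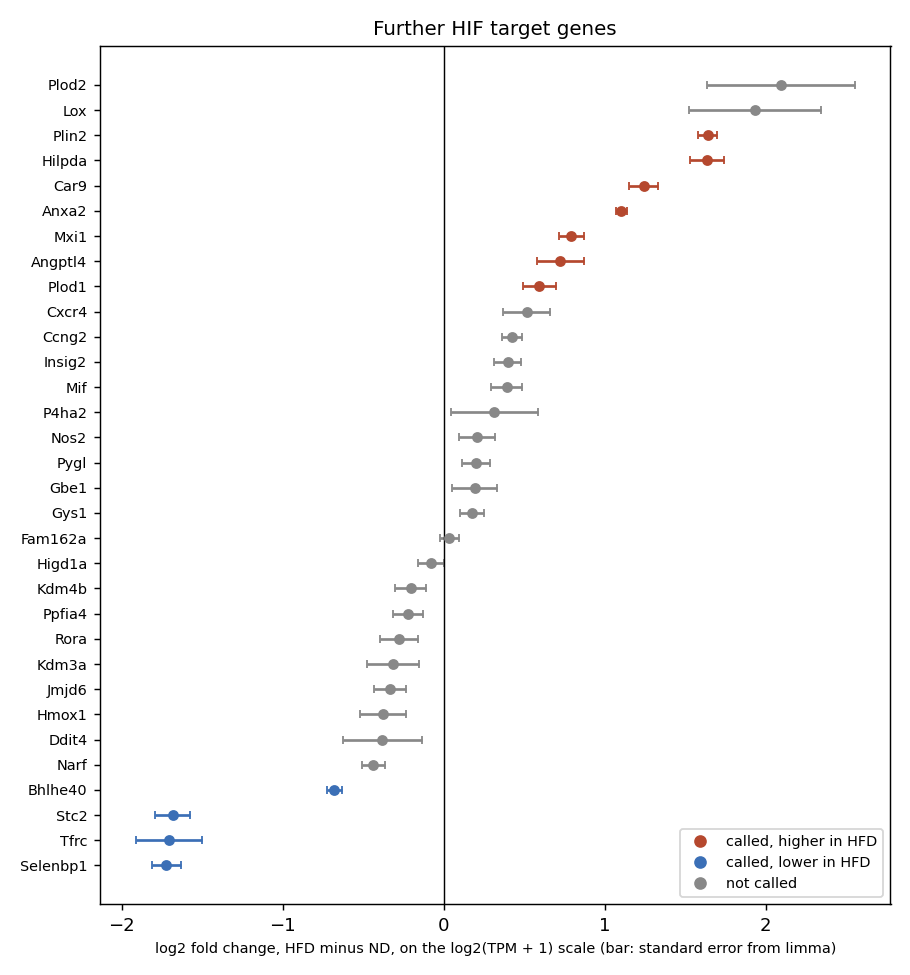
Log2 fold change (HFD minus ND on the log2(TPM + 1) scale, bars are the SE from limma) of the 32 further HIF target genes tested. The values run from -1.72 for Selenbp1 to 2.09 for Plod2, which was not called (adjusted p from limma = 0.0535), with 7 called higher and 4 called lower.

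The pathways that branch from glycolysis were read from further lists. The pentose phosphate pathway, which takes glucose 6-phosphate to make NADPH, had 2 of 8 genes called higher and 0 called lower. These are 25% and 0% of the list, beside 8.08% and 10.3% of all genes tested. Pgd, its second dehydrogenase, was measured at 98.1 and 96.9 TPM in ND and at 161.3 and 193.0 TPM in HFD (log2 fold change 0.85, adjusted p from limma = 0.0193). Taldo1, the other, was named after its values were seen and had a log2 fold change of 0.60 (adjusted p from limma = 0.0495). Of the 12 genes for the entry of pyruvate into mitochondria, 0 were called by limma, beside 18.4% of all genes tested.

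Of 20 other genes of glycolysis and glucose uptake, 1 was called in each direction. Galm, which interconverts the ring forms of sugars, was measured at 10.7 and 10.9 TPM in ND and at 24.1 and 19.6 TPM in HFD (log2 fold change 0.95, adjusted p from limma = 0.0214). Slc2a6, a hexose transporter of lysosomes in macrophages, was measured at 26.3 and 29.6 TPM in ND and at 13.5 and 14.8 TPM in HFD (log2 fold change -0.93, adjusted p = 0.0143). The transporters Slc2a1 and Slc2a6 were thus called in opposite directions. Among 13 other regulators of HIF, Siah2, a ubiquitin ligase that acts on the hydroxylases, was called lower, from 66.6 and 66.8 TPM to 40.7 and 29.5 TPM (log2 fold change -0.92, adjusted p from limma = 0.0424), and 0 were called higher. Over the 91 tested genes of all pathway lists, which include 6 testis forms of glycolytic enzymes of which none was called, 10 were called higher (11%) and 6 lower (6.59%), beside 8.08% and 10.3% of all genes tested.

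The replicates of ND were close for the 41 genes, and none differed by 1.5-fold between them. The HFD replicates differed by at least 1.5-fold in 4 of the 41 genes, with Slc2a3, Hk1 and Pfkm higher in replicate 1 and Adm higher in replicate 2. Over all genes tested, 18.3% differed by 1.5-fold between the HFD replicates. None of these 4 genes was called. Differences between the 2 HFD samples on the log2 scale were 1.72 for Slc2a3, 0.89 for Hk1, 0.70 for Pfkm and 0.57 for Egln2, and were -0.60 for Adm and -0.55 for Ndrg1.

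Genes of other cell types also differed between the HFD samples. A list of 8 spermatid genes summed to 1911 and 1938 TPM in the ND samples, against 7245 TPM for HFD replicate 1 and 2190 TPM for HFD replicate 2. Glycolytic enzymes have forms known from the testis, and these followed the same samples. Pgk2 was measured at 39.7 and 45.8 TPM in ND, against 174.9 TPM for HFD replicate 1 and 43.0 TPM for replicate 2. Gapdhs was measured at 25.3 and 26.3 TPM in ND, against 97.1 TPM for HFD replicate 1 and 24.7 TPM for replicate 2. The 7 testis forms in the files summed to 190.7 and 199.1 TPM in ND, against 610.7 TPM for HFD replicate 1 and 149.3 TPM for replicate 2, and none of the 6 tested was called.

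Slc2a3, Hk1 and Pfkm were higher in the same HFD sample as the spermatid genes, and the part of such transcripts in their values was not tested. A list of 7 fibroblast genes went the other way, with 593.5 and 637.8 TPM in ND, against 3032 TPM for HFD replicate 1 and 6064 TPM for replicate 2. These genes also differed by diet, with 5 of 7 called higher in HFD (71.4%, beside 8.08% of all genes tested). Adm and Ndrg1 were higher in the same sample as the fibroblast genes, and the part of fibroblasts in their values was not tested. Without HFD replicate 1 the log2 fold changes of Adm and Ndrg1 were 1.07 and 0.77, and without HFD replicate 2 they were 0.47 and 0.22. Of the 12 called genes, none was lost without HFD replicate 1, and Pgk1 and Slc2a1 were lost without HFD replicate 2.

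**Figure D5:**
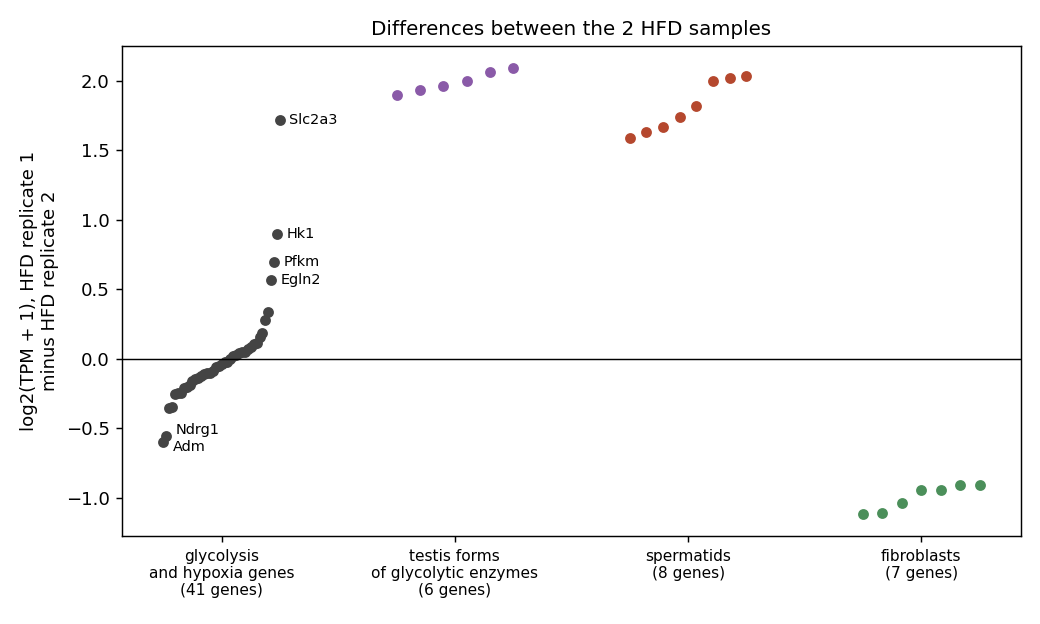
Difference in log2(TPM + 1) between the 2 HFD samples (replicate 1 minus replicate 2) for the 41 genes, 6 testis forms of glycolytic enzymes, 8 spermatid genes and 7 fibroblast genes; each point is 1 gene. Slc2a3 (1.72) and Hk1 (0.89) lie on the side of the testis and spermatid genes, and Adm (-0.60) lies on the side of the fibroblast genes.

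Transcripts that mark kinds of cells, or proliferation, also differed between the diets. For comparison with the counts below, 8.08% of all genes tested were called higher and 10.3% lower. Markers of lipid-associated macrophages, such as Trem2, summed to 3064 and 3090 TPM in ND and to 13754 and 14426 TPM in HFD. Of these markers, 10 of 10 were called higher. Markers of resident macrophages summed to 4595 and 4705 TPM in ND and to 1535 and 1223 TPM in HFD, and 7 of 7 were called lower. Markers of proliferation summed to 72.7 and 74.6 TPM in ND and to 189.8 and 166.4 TPM in HFD, and 7 of 7 were called higher. B cell, T cell and NK cell markers were called lower in 5 of 5, 6 of 6 and 5 of 5 genes. Neutrophil, monocyte and dendritic cell markers were called lower in 5, 3 and 2 of 6 genes each. Outside the immune cells, the fibroblast markers, summed above, were called higher in 5 of 7 genes. Markers of the epididymal epithelium summed to 174 and 189.7 TPM in ND and to 15.9 and 33.2 TPM in HFD, and 5 of 6 were called lower. General macrophage markers summed to 13625 and 13190 TPM in ND and to 11292 and 12030 TPM in HFD. Both HFD sums were thus below both ND sums. Of these 10 markers, 2 were called higher (Adgre1 and Cd68) and 1 lower (C1qa). The part of these cells in the changes of the glycolytic genes was not tested, and composition and expression per cell cannot be told apart in these data.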

How the data were processed

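RNA-seq was performed on CD45+ cells of eWAT, with 2 samples of ND and 2 of HFD. According to the sources, libraries came from a stranded mRNA kit, and the authors used Trim Galore (0.4.2) and cutadapt (1.9.1) for trimming, STAR (2.6.1e) for alignment to mm10 and featureCounts (1.6.2) for counts per gene after removal of duplicates. The gene annotation and the use of strand in counting are not given in the sources used here, so reads shared with overlapping or antisense genes cannot be told apart. The deposited values are TPM, scaled by the authors to the same total in each sample and printed to 1 decimal.

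The TPM values were compared as log2(TPM + 1) with limma 3.58.1 in R 4.3.3 (lmFit, then eBayes with trend). The fit covered the 16849 genes that reached 1 TPM in 2 or more samples, and Benjamini-Hochberg adjustment ran over all of them. The steps were tested on simulated data. Read numbers are approximate: they come from the smallest step between values of short genes (0.0606 to 0.0711 TPM for 1 read per kb) and GENCODE vM21 exon lengths. Positions and promoters are from RefSeq for GRCm38, the assembly that mm10 names.

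The genes, the pathway and marker lists and the tests were chosen with earlier results of these data known. Statistics were given in full for the called genes and for the first uncalled gene of each role with a level among the 10 highest, and from each pathway list the largest called increase and decrease were named. One gene of the wider list of HIF targets was left out of that list and is not reported here. Alternatives were other pseudocounts, filters, scalings and fold limits, a replicate block and leaving out each sample.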

Additional observations from a re-analysis of the deposited data

How the results depend on the processing

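The main settings called 12 of the 41 genes (11 higher, 1 lower), 16 genes of the pathway lists and 3097 genes in all. With a replicate block, although the correlation of deviations between same-numbered samples was -0.015 and the numbers did not pair them, 6 genes were called (6 higher, 0 lower), with 5 of the pathway lists and 812 in all, and Aldoa, Egln3, Pdk1, Slc2a1, Tpi1 and Vegfa were lost. With a fold limit of 2, 5 were called (4 higher), with 7 of the pathway lists and 1602 in all, and with no fold limit 18, of which 3 lower, with 28 of the pathway lists. A pseudocount of 5 called 0 lower and 2015 genes in all, and a mean TPM of at least 5 left Egln3 and Eno2 untested and 0 called lower. A pseudocount of 0.1, quantile normalization and rescaling without the 50 most abundant genes called 2 lower. The median log2 fold change of the 41 genes was 0.11 with quantile normalization and 0.15 without those 50 genes. Small values changed sign for Pfkp (-0.015 with median-ratio scaling, -0.069 with quantile normalization, -0.044 without the 50 genes), Epas1 (-0.014, quantile), Bnip3 (-0.085, quantile; -0.027 without the 50 genes) and Ldhb (-0.0096 without the 50 genes). Rescaling without genes at least 2-fold apart between the HFD replicates, chosen after seeing the data, called 13.

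Leaving out 1 sample gave from 0 to 15 called genes (0 to 13 higher, 0 to 2 lower), 0 to 24 of the pathway lists and 0 to 4232 in all, with medians of 0.17 to 0.34. The 0 came without either ND sample, where limma takes the spread from the HFD pair alone and the lone ND sample is assumed to vary like it; 17 and 18 of the 41 genes then had an unadjusted p under 0.05. Without an HFD sample the spread comes from the ND pair alone, so gained calls show no replicated change. Signs changed within the ranges of Pfkp (-0.037 to 0.068), Ldhb (-0.021 without ND replicate 1), Hk1 (-0.052 without HFD replicate 1 to 0.84 without HFD replicate 2), Pfkm (-0.21 to 0.49), Egln2 (-0.17 to 0.40), Bnip3 (-0.060 to 0.12) and Slc2a3 (-1.37 without HFD replicate 1 to 0.35 without HFD replicate 2). The low levels of Eno2, Egln3 and Pdk1, with TPM rounded to 1 decimal, limit the precision of their fold changes.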

Other observations

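Gapdh, which had a log2 fold change of 0.39 here, is one of the genes often used as a reference for RT-qPCR. A list of 11 such genes, written after the results had been seen, had 2 called higher and 1 lower by limma, and 6 had an adjusted p under 0.05. Over all genes tested the shares were 18.4% for a call in either direction and 27.3% for the adjusted p. Gusb, a lysosomal enzyme, was measured at 73.6 and 76.8 TPM in ND and at 252.0 and 265.9 TPM in HFD (log2 fold change 1.77). Actb had a log2 fold change of 0.071, Ppia of 0.13, Tbp of -0.12 and Hprt of 0.16, and none of these 4 was called.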
